A study of Rattus norvegicus with 12 samples.

Results

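Genes that make and use glutathione and thioredoxin, and the enzymes that remove superoxide and peroxides, were followed in a pair of rat insulinoma lines, CRI-G1-RR and CRI-G1-RS. Members were chosen by gene name, with earlier results of these data known. They were every probe set annotated with a single gene symbol of the families Gsta, Gstk, Gstm, Gsto, Gstp, Gstt, Gstz, Mgst, Gpx, Prdx, Txn, Txnrd and Glrx, together with Gsr, Gclc, Gclm, Gss, Srxn1, Cat, Sod1, Sod2, Sod3, Cbs and Cth. This rule found 63 probe sets for 55 genes, out of 31099 probe sets and 14218 named genes on the array. A pair of other probe sets carried several symbols and was left out, 1 of them shared by Gsta2 and Gsta5 and the other by Prdx1 and Prdx1l1, so that Prdx1 and Gsta2 are not among the members.

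CRI-G1 is a hormone-producing line from a transplantable rat islet cell tumour. CRI-G1-RR is the parental clone, labelled rotenone resistant, and CRI-G1-RS is a single subclone derived from it and labelled rotenone sensitive; rotenone blocks complex I of the respiratory chain. Both lines were untreated and grown in the same high glucose medium with serum, and total RNA from 6 passages of each line, harvested in pairs, was hybridised to Affymetrix Rat 230 2.0 arrays, 1 sample to each of 12 arrays. Because each line is 1 clone, a difference tied to rotenone sensitivity cannot be told apart from any other difference between these clones, and the p-values measure the spread between passages.

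Glutathione is a tripeptide of glutamate, cysteine and glycine that is kept reduced by glutathione reductase with NADPH. Glutathione peroxidases use it to reduce peroxides, glutathione transferases join it to reactive compounds, and glutaredoxins use it to reduce protein disulfides. Thioredoxin, kept reduced by the selenoprotein thioredoxin reductase, serves the peroxiredoxins in parallel. Pancreatic beta cells are known for low levels of catalase and glutathione peroxidase compared with other tissues, and many of the inducible members are targets of the transcription factor Nrf2, which binds antioxidant response elements in their promoters.

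Signals are the deposited linear probe set intensities, given as mean ± SD over 6 arrays a line. Log2 fold changes are RS over RR on the log2(signal + 16) scale after quantile normalization, so that they understate the change of dim genes and, like the folds taken from them, differ from the ratio of the deposited means. A call is an adjusted p under 0.05 in limma with Benjamini-Hochberg adjustment over all probe sets. A gene with several probe sets is represented by the brightest of them. Array totals had been equalised (trimmed mean about 250.07 on each of the 12), the mean correlation of an array with its own line was 0.980 to 0.985 and with the other line 0.956 to 0.963, and CRI-G1-RS replicate 2 had the lowest own-line value. With the other line, RR replicates 1 to 3 correlated at 0.963 and RR replicates 4 to 6 at 0.957 to 0.959. Of 10 islet endocrine markers measured, 8 reached a mean signal of 50 in either line, with the somatostatin and pancreatic polypeptide genes (Sst and Ppy) below it, and their summed signal was 25308 to 29854 in RR and 26038 to 32184 in RS. Within that list 4 of 10 were called higher in RS and 0 lower, against 21.0% and 18.3% of all named genes. The higher ones were Ins2 (1.30), Pdx1 (1.09) and Pcsk2 (0.97) without overlap, and Chga (0.25). All 8 acinar and all 3 endothelial markers stayed below 50, and 2 of 5 leukocyte markers reached it. The summed signal of the 3 duct markers, almost all of it the keratin gene Krt7, was 4816 to 5886 in RR and 3317 to 4200.1 in RS, and that of the 6 fibroblast markers was 230.5 to 299.5 in RR and 307 to 390.2 in RS. Their part in the results below was not tested, and in such bulk samples fewer cells of a type cannot be told apart from less RNA per cell.

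The 3 promoters below are shown because they belong to members called lower in RS cells and hold the core of an antioxidant response element wholly upstream of the gene start. The motif TGACNNNGC was searched on both strands of the stretch from 250 bases before to 50 bases after each gene start (RefSeq, rat build GRCr8). Capitals mark the match, and each line runs 5′ to 3′ on the strand of the gene.
Gpx2: acctggtttcGCTAAGTCAttctgggaatg
Gstp1: tccactgtgtTGACTCAGCatccggggcgg
Gclm: tgcggtttctGCTTAGTCAttgtcttccag
The Gpx2 window lies at chr6:101230027-101230056 on the minus strand, and its match, on the opposite strand to the gene, begins 13 bases upstream of the gene start. The Gstp1 window lies at chr1:210769747-210769776 on the minus strand, with the match on the strand of the gene 61 bases upstream. The Gclm window lies at chr2:213031953-213031982 on the plus strand, with the match on the opposite strand 172 bases upstream. A promoter entry was found for 47 of the 55 member genes, and 11 of these (23.4%) held the core, against 12.2% of all 27457 promoters of that length. The core stood in 5 of 17 members called lower in RS cells, in 1 of 10 called higher and in 5 of 20 with no call. The lower members that held it besides those shown were Prdx5, with a match that begins 1 base upstream and runs past the start, and Prdx4, with a match after the start. It was thus present in members of each kind. The higher member that held it was Gstm7, at chr2:198260314-198260343 on the minus strand, with its match 14 bases upstream:
Gstm7: gaggctagatTGACACAGCctgtccgttca
Among the members that fell at least 2-fold, the core was found for Gpx2 and Gstp1, and the letters were not in the windows of Gclc, Txnrd1, Srxn1, Gsta4 and Cbs. Mgst2 had no entry.

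Across the 63 probe sets, 36 were called, against 31.7% of all probe sets tested. The calls leaned towards lower signals in RS cells, with 25 lower (background 15.4%) and 11 higher (background 16.3%), that is 39.7% and 17.5% of the member probe sets. At a change of at least 2-fold, 10 probe sets were lower (background 2.12%) and 0 were higher (background 1.84%). By gene, 21 of 55 were lower and 10 higher, where the backgrounds over named genes were 18.3% and 21.0%. The median log2 fold change of the member probe sets was −0.17, and that of all probe sets 0.0063. A mean signal under 50 in both lines, called dim here, was found for 12 genes. Of these Gpx1 and Gstm6l were called lower, and the calls were lost when any of 9 and 10 single arrays was left out. Among the 43 brighter genes, 19 were lower (44.2%, background 23.3%) and 10 higher (23.3%, background 26.6%), and the arrays of the lines did not overlap for 23 of them (53.5%, background 35.6%), 17 lying wholly below in RS (background 16.5%) and 6 wholly above (background 19.1%).

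**Figure D1:**
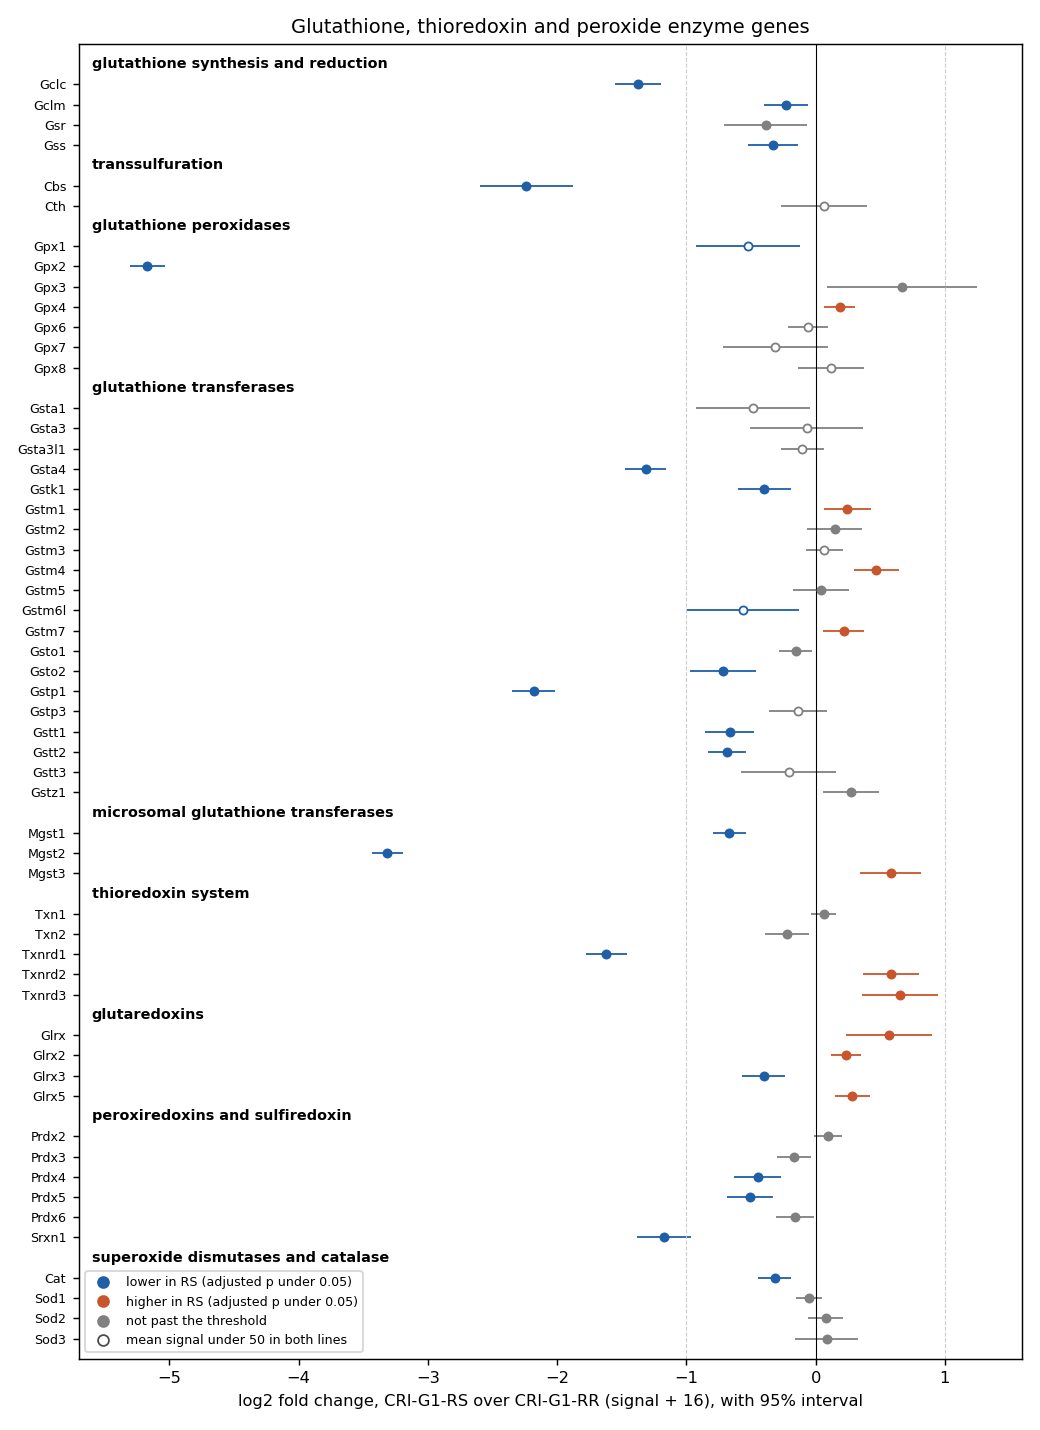
Log2 fold change of each of the 55 member genes, CRI-G1-RS over CRI-G1-RR, with its 95% interval, by class of enzyme; blue marks genes called lower, orange genes called higher, grey genes with no call, and open circles genes with a mean signal under 50 in both lines. All points beyond the dashed lines at a 2-fold change lie on the lower side, from Srxn1 at −1.17 to Gpx2 at −5.17.

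The 8 genes that fell at least 2-fold (background 2.49% of named genes) came from 7 of the 9 classes of enzyme. They were Gpx2, Mgst2, Cbs, Gstp1, Txnrd1, Gclc, Gsta4 and Srxn1. In each of them all 6 RS arrays lay below all 6 RR arrays, which is a description, since the genes were singled out by their fall on these arrays.

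**Figure D2:**
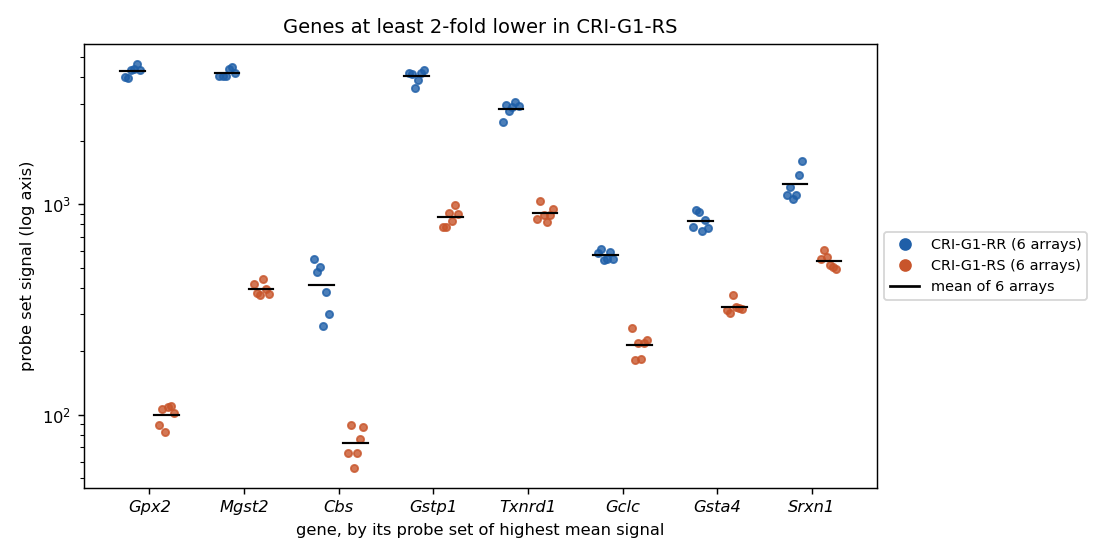
Deposited signal (log axis) of the 8 member genes at least 2-fold lower in CRI-G1-RS, with 1 point for each array and a bar at the mean of 6 arrays. The RR and RS arrays do not overlap for any of the 8 genes, and the widest gap is that of Gpx2, from 3953 down to 110.1.

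Glutathione peroxidases reduce hydrogen peroxide and lipid peroxides. In RR cells the lowest, median and highest Gpx2 signals were 3953, 4319.5 and 4613, and in RS cells they were 83.1, 105 and 110.1. Gpx2, the gastrointestinal form, fell from 4264 ± 246 to 100.2 ± 11.2, with a log2 fold change of −5.17 (95% interval −5.31 to −5.03), which is 36.0-fold on the signal + 16 scale, and an adjusted p of 4.79e-14. The 6 RR arrays gave Gpx4 signals between 2118 and 2357, with a median of 2204, and the 6 RS arrays between 2194 and 2576, with a median of 2484. Gpx4, which reduces lipid peroxides within membranes, rose slightly, with a log2 fold change of 0.19 (95% interval 0.066 to 0.31), and its arrays overlapped. This call was lost with the deposited scaling alone (0.15, adjusted p = 0.0728), with median centring (0.13, adjusted p = 0.193) and with the replicate number as a block (adjusted p = 0.0574), and a second, dimmer Gpx4 probe set gave −0.38 with an adjusted p of 0.0702. Gpx1, the cytosolic form, was dim on its single probe set. For Gpx1 the median signal was 19.1 in RR arrays (range 6.85 to 32.5) and 7.50 in RS arrays (range 1.73 to 17.5). Its log2 fold change of −0.52 had an adjusted p of 0.0460, and leaving out any single array other than RR replicate 3, RS replicate 2 or RS replicate 6 lost the call (adjusted p up to 0.0992), as did the block (adjusted p = 0.0886) and a pseudocount of 1, which gave −1.19 on the log2 scale (adjusted p = 0.0781). The within-array difference of Gpx1 from Gpx2 shifted by 4.65, a value that rests on the Gpx2 signal because Gpx1 was dim. Gpx3, the plasma form, gave 0.67 without a call (adjusted p = 0.0773, but 0.0258 without RR replicate 4 and 0.00803 without RS replicate 4), and Gpx6, Gpx7 and Gpx8 were dim.

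The rate-limiting step of glutathione synthesis is carried out by glutamate-cysteine ligase, whose catalytic subunit is Gclc and whose modifier subunit is Gclm. Gclc signals ran from 544 to 612 in the RR arrays (median 569) and from 182 to 257 in the RS arrays (median 219). Gclc fell from 573 ± 29.3 to 215 ± 28.1, with a log2 fold change of −1.38 (95% interval −1.55 to −1.20), which is 2.59-fold on the signal + 16 scale, and an adjusted p of 6.24e-08. A second Gclc probe set gave −1.05, from 164 ± 11.3 to 73.4 ± 14.4, again without overlap.

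In RR cells the lowest, median and highest Gclm signals were 2189, 2540.1 and 2826, and in RS cells they were 1849, 2125 and 2296. The modifier subunit fell far less than the catalytic one, with a log2 fold change of −0.23 (95% interval −0.40 to −0.063) and overlapping arrays. Its adjusted p of 0.0370 rose above 0.05 (0.0572 to 0.0805) when RR replicate 1, 2, 3 or 6 or RS replicate 2, 4 or 5 was left out. The within-array log2 difference of Gclc from Gclm shifted by −1.14 between the lines with no overlap. The exact permutation test gave p = 0.00216, the smallest that 6 against 6 arrays can give. Over the 10 pairs of enzymes tested in this way, the adjusted p was 0.00309. On the log2 scale the gap of Gclc between the lines was wider than the whole range of Gclm. The difference therefore had to separate, and its p adds nothing to the results of the single genes.

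The second step of synthesis is carried out by glutathione synthetase, Gss. The 6 RR arrays gave Gss signals between 191 and 255, with a median of 205, and the 6 RS arrays between 141 and 189, with a median of 170.4. The arrays did not overlap, the log2 fold change was −0.33 (95% interval −0.52 to −0.14), and the Gclc-to-Gss difference shifted by −1.05 (adjusted p = 0.00309 by the exact permutation test). That difference too had to separate, because the gap of Gclc between the lines was wider than the whole range of Gss, and its p adds nothing. Glutathione reductase, Gsr, regenerates the reduced form. For Gsr the median signal was 782 in RR arrays (range 635 to 876) and 633 in RS arrays (range 355 to 709). Its log2 fold change of −0.39 (95% interval −0.71 to −0.068) missed the threshold (adjusted p = 0.0637), and the lowest RS value was that of replicate 2 alone. It passed without RR replicate 1 (0.0482), RS replicate 2 (0.0440) or RS replicate 6 (0.0464), with a signal minimum of 50 (0.0348) and with an intensity trend (0.0422).

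Cysteine for glutathione can be made from methionine by transsulfuration, through Cbs (cystathionine beta-synthase) and then Cth (cystathionine gamma-lyase). Cbs signals ran from 264 to 549 in the RR arrays (median 428) and from 56.2 to 89.1 in the RS arrays (median 71.5). The RR values of Cbs were widely spread, at 475 to 549 in replicates 1 to 3 and 264 to 382 in replicates 4 to 6. The lines nonetheless did not overlap for Cbs. It fell from 412 ± 114 to 73.6 ± 13.2, with a log2 fold change of −2.24 (95% interval −2.60 to −1.87), which is 4.72-fold on the signal + 16 scale, and an adjusted p of 4.45e-07. Its probe set is of a kind that can detect several transcripts of 1 gene. In RR cells the lowest, median and highest Cth signals were 3.33, 12.6 and 15.9, and in RS cells they were 3.97, 14.7 and 18.3. Cth was thus dim in both lines, with a log2 fold change of 0.064 and no call, and the shift of the Cbs-to-Cth difference, −2.30, rests on the Cbs signal.

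Glutathione transferases formed the largest class, with 20 soluble members of which 7 were called lower, 3 higher and 10 neither (backgrounds over named genes 18.3% lower and 21.0% higher), and 7 were dim. The class names (alpha, mu, pi, theta, omega, zeta, kappa) group them by sequence, and near-identical paralogs in the alpha and mu classes may share signal on a probe set. The 6 RR arrays gave Gstp1 signals between 3553 and 4330.1, with a median of 4165, and the 6 RS arrays between 778 and 992, with a median of 864. Gstp1, the pi-class transferase, fell from 4048 ± 287 to 865 ± 84.5, with a log2 fold change of −2.18 (95% interval −2.35 to −2.01), which is 4.53-fold on the signal + 16 scale, and an adjusted p of 8.82e-10. Its neighbour in gene order, Gstp3, was dim. For Gsta4 the median signal was 809 in RR arrays (range 749 to 939) and 320.5 in RS arrays (range 306 to 372). Gsta4, an alpha-class enzyme with high activity towards the lipid peroxidation product 4-hydroxynonenal, fell from 832 ± 80.6 to 326 ± 23.3, with a log2 fold change of −1.32 (95% interval −1.48 to −1.16), which is 2.49-fold on the signal + 16 scale, and an adjusted p of 4.49e-08. The other alpha members Gsta1, Gsta3 and Gsta3l1 were dim, without a call; Gsta1 gave −0.49 (adjusted p = 0.0896) and passed without RS replicate 3 (0.0405) or 5 (0.0441).

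The theta and omega classes held smaller falls. Gstt2 went from 299 ± 20.9 to 182 ± 16.2 (log2 fold change −0.69, limma adjusted p = 4.63e-06), Gstt1 from 279 ± 15.8 to 173 ± 22.6 (−0.67, adjusted p = 5.21e-05) and Gsto2 from 98.9 ± 16.3 to 54.9 ± 11.3 (−0.72, adjusted p = 4.15e-04), each without overlap. Gsto1, which lies next to Gsto2, gave −0.15 and no call (adjusted p = 0.0691), but passed without RR replicate 1 (0.0490) and under 4 other settings (0.0217 to 0.0475). The kappa member Gstk1 fell by 0.40 on the log2 scale, and the zeta member Gstz1, an enzyme of tyrosine breakdown, gave 0.27 without a call (adjusted p = 0.0534), though it passed without RR replicate 5 (0.0240) or 6 (0.0450) and under 4 other settings.

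Of the mu class, 3 of 5 brighter members were called higher, where the background over brighter genes was 26.6%. Among all 7 members of the class, 3 were called higher and 1 lower. The 7 Gstm genes lie in 1 cluster on chromosome 2, with 2 other protein-coding genes among them. Gstm4 rose from 604 ± 65.7 to 843 ± 60.5 without overlap (log2 fold change 0.47, limma adjusted p = 5.44e-04). Gstm1 (0.25) and Gstm7 (0.22) rose by less, with overlapping arrays, and both calls were lost with median centring (adjusted p = 0.0881 and 0.0742) and when any of 8 single arrays was left out. For Gstm1 these were RR replicates 1 to 5 and RS replicates 3, 5 and 6 (adjusted p up to 0.0844), and for Gstm7 RR replicates 2, 3, 5 and 6 and RS replicates 1 to 4 (adjusted p up to 0.0823), besides a pseudocount of 1 (0.0507) and array weights (0.0601). Gstm5, at 1216 ± 134 in RR and 1247 ± 168 in RS cells, gave 0.039 (95% interval −0.18 to 0.26) and no call. The dim Gstm6l was called lower (−0.56, adjusted p = 0.0481), and this call was lost without any array other than RR replicate 1 or RS replicate 2 (adjusted p up to 0.103), with the deposited scaling (0.0689) and with a pseudocount of 64 (0.0622).

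Microsomal glutathione transferases are membrane enzymes of another family. Mgst2 signals ran from 4046 to 4493 in the RR arrays (median 4128) and from 372 to 442 in the RS arrays (median 388). Mgst2, which also makes leukotriene C4, fell from 4202 ± 189 to 397 ± 28.0, with a log2 fold change of −3.32 (95% interval −3.44 to −3.20), which is 9.95-fold on the signal + 16 scale, and an adjusted p of 8.88e-13. In RR cells the lowest, median and highest Mgst1 signals were 2481, 2599.7 and 2831, and in RS cells they were 1485, 1631 and 1745. Mgst1 also fell without overlap, by a log2 fold change of −0.67 (95% interval −0.79 to −0.54), so that the difference of Mgst1 from Mgst2 shifted by 2.65 (adjusted p = 0.00309 by the exact permutation test). This difference had to separate, because the gap of Mgst2 between the lines was wider than the whole range of Mgst1, and its p adds nothing. Mgst3 moved in the opposite direction, from 867 ± 91.4 to 1310.1 ± 225, with a log2 fold change of 0.58 (95% interval 0.34 to 0.82), an adjusted p of 0.00114 and no overlap. All 3 members of this class were therefore called, 2 lower and 1 higher (backgrounds 18.3% and 21.0%).

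In the thioredoxin system, the reductases changed in opposite directions while neither thioredoxin was called. Txnrd1 is the cytosolic reductase, Txnrd2 the mitochondrial one, and Txnrd3 a form that also carries a glutaredoxin domain. The 6 RR arrays gave Txnrd1 signals between 2458 and 3040.3, with a median of 2912, and the 6 RS arrays between 822 and 1039, with a median of 889. Txnrd1 fell from 2841 ± 208 to 905 ± 78.4, with a log2 fold change of −1.62 (95% interval −1.77 to −1.46), which is 3.07-fold on the signal + 16 scale, and an adjusted p of 5.74e-09. Its second probe set gave −1.68.

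For Txnrd2 the median signal was 199 in RR arrays (range 160.1 to 210.2) and 298 in RS arrays (range 239 to 357). Txnrd2 rose without overlap, with a log2 fold change of 0.59 (95% interval 0.37 to 0.80) and an adjusted p of 4.94e-04. Txnrd3 rose from 62.0 ± 19.3 to 106 ± 8.40, also without overlap (0.65, adjusted p = 0.00224). The Txnrd1-to-Txnrd2 difference shifted by −2.20 and that of Gsr from Txnrd1 by 1.23 (both adjusted p = 0.00309 by the exact permutation test). With Txnrd1 wholly below and Txnrd2 wholly above in RS arrays, the Txnrd1-to-Txnrd2 difference had to separate. Its p therefore adds nothing to the results of the single genes.

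Txn1 signals ran from 5872 to 6489 in the RR arrays (median 5939) and from 5538 to 7019 in the RS arrays (median 5653). Thioredoxin itself, Txn1, thus had overlapping lines, and its log2 fold change of 0.062 (95% interval −0.036 to 0.16) was near 0, turning to −0.029 with the deposited scaling and −0.050 with median centring. In RR cells the lowest, median and highest Txn2 signals were 743, 849.6 and 911, and in RS cells they were 655, 692 and 867. The mitochondrial Txn2 gave −0.22 (95% interval −0.39 to −0.048), just short of the threshold (adjusted p = 0.0511), and passed without RR replicate 2 (0.0277), RS replicate 1 (0.0148) or RS replicate 3 (0.0412) and under 3 other settings. Their difference shifted by 0.28 (adjusted p = 0.0135 by the exact permutation test), but by 0.19 with p = 0.136 on the deposited scaling.

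**Figure D3:**
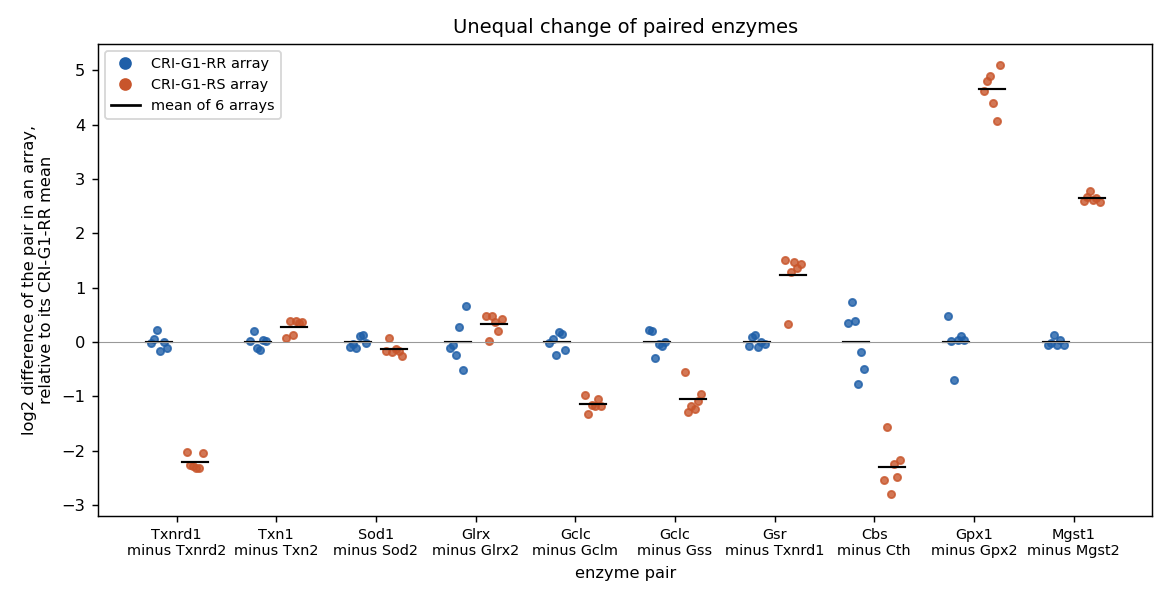
Within-array log2 difference between the enzymes of each of 10 pairs, relative to the RR mean of that pair, with 1 point for each array and a bar at the mean of 6 arrays. The RS arrays lie wholly apart from the RR arrays in 7 pairs, by −1.05 for Gclc and Gss up to 2.65 for Mgst1 and Mgst2 among pairs with both enzymes above the dim limit, and overlap them for Txn1 and Txn2, Sod1 and Sod2, and Glrx and Glrx2.

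All 4 glutaredoxins were called, 3 higher and 1 lower (backgrounds over named genes 21.0% and 18.3%). The 6 RR arrays gave Glrx signals between 234 and 537, with a median of 332, and the 6 RS arrays between 459 and 570.3, with a median of 531. Glrx, the cytosolic form, rose with overlapping arrays (0.57, 95% interval 0.23 to 0.90, adjusted p = 0.0125), and a second probe set gave 0.61. For Glrx2 the median signal was 1522 in RR arrays (range 1488 to 1614) and 1778 in RS arrays (range 1699 to 1994). The mitochondrial Glrx2 rose without overlap on this probe set (0.24, 95% interval 0.12 to 0.35), but another one gave 0.0040 with an adjusted p of 0.983, so that its call depends on the probe set. The difference of Glrx from Glrx2 shifted by 0.33 and missed the threshold (p = 0.106 by the exact permutation test), except without RR replicate 6 (adjusted p = 0.0135). Glrx5 and Glrx3 belong to the iron-sulfur cluster machinery, Glrx5 in mitochondria and Glrx3 in the cytosol. Glrx5 rose from 962 ± 73.4 to 1171 ± 42.9 (0.28) and Glrx3 fell from 2659 ± 167 to 1964 ± 221 (−0.40), both without overlap.

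**Figure D4:**
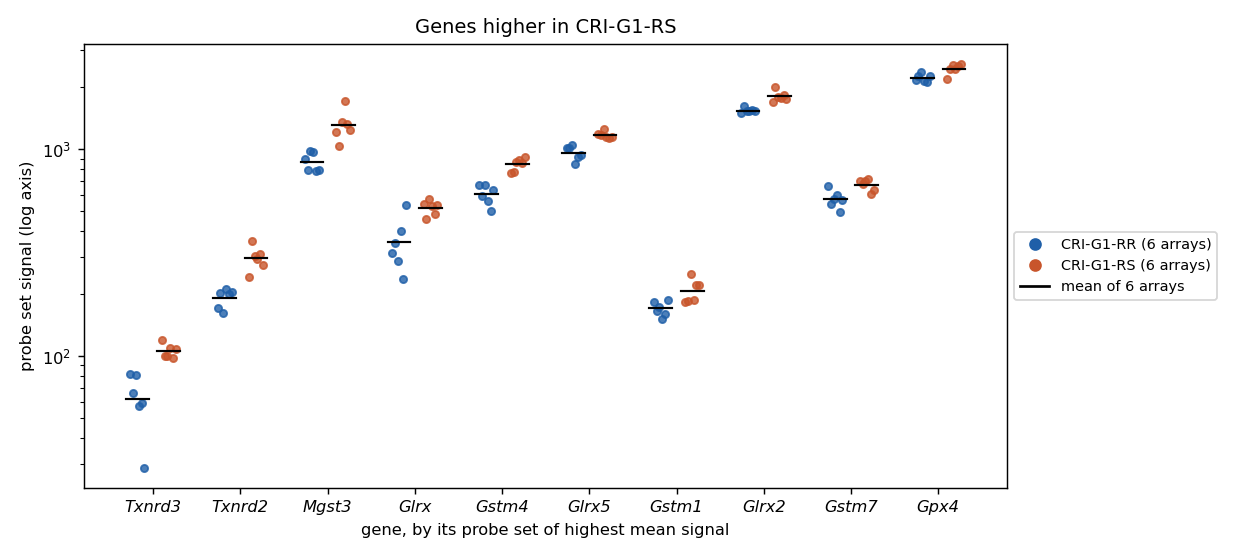
Deposited signal (log axis) of the 10 member genes called higher in CRI-G1-RS, with 1 point for each array and a bar at the mean of 6 arrays. The shifts reach 0.65 on the log2 scale at most, below the 2-fold mark, and the arrays overlap for Glrx, Gstm1, Gstm7 and Gpx4.

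Peroxiredoxins reduce peroxides through a reactive cysteine, and sulfiredoxin, Srxn1, repairs those whose cysteine has been over-oxidised. Srxn1 signals ran from 1061 to 1593 in the RR arrays (median 1154) and from 494 to 603 in the RS arrays (median 531). Srxn1 fell from 1239 ± 205 to 537 ± 41.4, with a log2 fold change of −1.17 (95% interval −1.38 to −0.97), which is 2.26-fold on the signal + 16 scale, and an adjusted p of 9.28e-07. A second probe set gave −0.81 without overlap, and the remaining one was dim (0.079, no call). Prdx5 fell from 1264 ± 94.3 to 886 ± 95.8 (−0.51, limma adjusted p = 3.69e-04). Prdx4, the form of the endoplasmic reticulum, fell from 3968 ± 388 to 2794 ± 311 (−0.45, adjusted p = 9.73e-04). Both were without overlap. Prdx2, Prdx3 and Prdx6 had no call, at 0.10, −0.17 and −0.16, though Prdx3 (adjusted p = 0.0564) passed without RR replicate 1 (0.0427) and under 3 other settings, and Prdx2 with an intensity trend (0.0465).

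Superoxide dismutases turn superoxide into hydrogen peroxide, and catalase breaks the peroxide down. In RR cells the lowest, median and highest Sod1 signals were 5084, 5345 and 5911, and in RS cells they were 4592, 4869 and 5716. The cytosolic Sod1 gave −0.054 (95% interval −0.15 to 0.045) and no call. The 6 RR arrays gave Sod2 signals between 1081 and 1219, with a median of 1179, and the 6 RS arrays between 1069 and 1332, with a median of 1238. The mitochondrial Sod2 gave 0.078 (95% interval −0.057 to 0.21), again with no call. Their difference shifted by −0.13 (adjusted p = 0.0746 by the exact permutation test), and passed without RS replicate 2 (0.00812). Cat fell from 988 ± 62.7 to 792 ± 48.0 without overlap, with a log2 fold change of −0.32 (95% interval −0.45 to −0.19) and an adjusted p of 0.00114. Sod3, the extracellular form, stood near the dim limit in both lines and gave 0.086.

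Where the genes that fell at least 2-fold lie was compared with the genes around them, taken from the RefSeq gene order as the 50 nearest on the chromosome with a mean signal of at least 100. For Gpx2 the median log2 fold change of the neighbours was −0.0012, for Gclc and Gsta4 −0.022, for Srxn1 −0.088, for Mgst2 0.10 and for Cbs 0.26. Gclc and Gsta4 are near one another on chromosome 8, with 4 protein-coding genes between them, and so share most of these neighbours. Each is also counted among the neighbours of the other, and the neighbour lower than Gsta4 was Gclc. Of 50 neighbours, 15 were called lower for Gclc, 14 each for Gpx2, Gsta4 and Srxn1, 8 for Mgst2 and 4 for Cbs. Called higher were 30 for Cbs, 21 for Mgst2, 15 each for Gclc and Gsta4, 13 for Gpx2 and 7 for Srxn1. Among all brighter genes, with the limit at 50 in place of 100, 23.3% were called lower and 26.6% higher. The Cbs neighbours were thus mostly called higher. Gstp1 on chromosome 1 had a neighbour median of −0.37, with 37 of 50 neighbours called lower and 2 higher, although none was as low as Gstp1 itself. Txnrd1 on chromosome 7 lay in a stretch that was mostly lower, with a median of −1.03. Of its 50 neighbours 38 were called lower and 1 higher, and 8 lay below Txnrd1. The fall of Txnrd1 was therefore no larger than that of 8 genes beside it, whereas 0 neighbours of Gpx2, Mgst2, Gclc or Gstp1, and 1 each of Cbs, Gsta4 and Srxn1, were lower than the member.

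**Figure D5:**
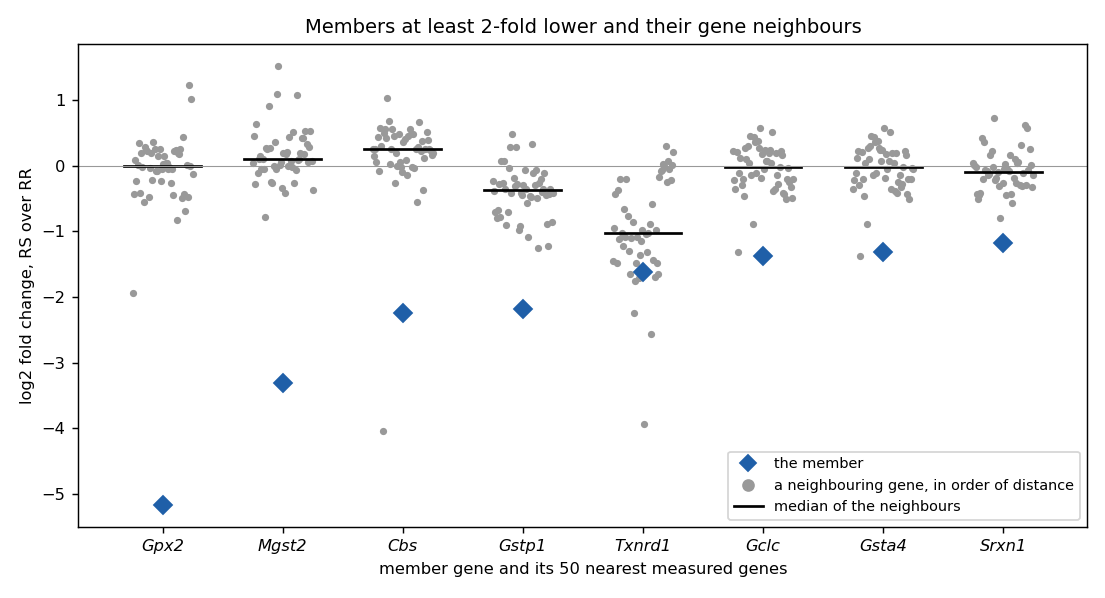
Log2 fold change of each member gene at least 2-fold lower (diamond) and of its 50 nearest measured genes (grey points, nearest at the left), with a bar at their median. The neighbour medians lie farthest below 0 for Txnrd1, at −1.03, and Gstp1, at −0.37, and between −0.088 and 0.26 for the other members.

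Other genes of these pathways were counted from 6 lists, of which 76 of 87 genes were measured, 17 called higher and 25 lower (backgrounds over named genes 21.0% and 18.3%). NADPH feeds both glutathione reductase and thioredoxin reductase, and of 10 genes for its supply 6 were lower and 1 higher. Idh1, the cytosolic isocitrate dehydrogenase, fell from 3769 ± 323 to 1672 ± 117 (−1.13, limma adjusted p = 5.44e-08). Taldo1 (−0.84) and Pgls (−0.70), both of the pentose phosphate pathway, fell as well, and the mitochondrial Idh2 was slightly higher (0.20), a call that was lost with the deposited scaling (adjusted p = 0.0639) and with median centring (0.158).

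Of 12 genes listed for the supply of cystine and precursors or the use of cysteine, 6 were lower and 2 higher (backgrounds 18.3% and 21.0%). The lower ones included Csad and Cdo1, which use cysteine by turning it towards taurine and are not supply genes. They fell by 1.38 and 0.78 on the log2 scale, and the amino acid transporter Slc1a5 fell by 0.92. Mat2a (0.37) and Slc3a2 (0.27) rose. Slc7a11, the cystine carrier that works with Slc3a2, was at 124 ± 15.7 in RR and 124 ± 26.7 in RS cells and was not called (−0.042, 95% interval −0.32 to 0.23). Among 15 genes of glutathione breakdown and export, 5 were higher, led by Chac2 (0.62), Abcc4 (0.55) and Ggct (0.42), and 3 were lower, Lap3 (−1.12), Anpep (−0.56) and Abcc3 (−0.28).

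In the list for the control of Nrf2, 3 of 11 genes were lower and 4 higher (backgrounds 18.3% and 21.0%). Nfe2l2, which encodes Nrf2, fell from 1032 ± 69.2 to 782 ± 77.6 without overlap, with a log2 fold change of −0.40 (95% interval −0.56 to −0.24) and an adjusted p of 8.25e-04 in limma. Keap1, the adaptor through which Nrf2 is degraded, rose from 241 ± 22.8 to 338 ± 29.7 (0.45, adjusted p = 4.39e-04), and Rbx1 of the same ubiquitin ligase rose from 1003 ± 75.7 to 1585 ± 73.0 (0.65), both without overlap. The Nrf2 partner Mafk (−0.39) and Park7 (−0.25) were lower, and Nfe2l1 was higher (0.38), a call lost with the replicate block (adjusted p = 0.0689) and without RR replicate 1, 2, 3, 5 or 6 or RS replicate 4 (adjusted p up to 0.0733).

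Of 13 thioredoxin partners, 4 were lower and 2 higher (backgrounds 18.3% and 21.0%). Txndc5 (−0.75) and Txndc12 (−0.59), thioredoxin-like proteins of the endoplasmic reticulum, and Txndc9 (−0.41) fell, and Txnl1 rose (0.59). Among 15 oxidant sources, 3 were lower and 3 higher, a share near the background in each direction (18.3% and 21.0% of named genes). Ero1b, an oxidase that forms disulfides in the endoplasmic reticulum and is known from islet cells, rose from 230.4 ± 57.1 to 1069 ± 67.4 (2.16, limma adjusted p = 5.78e-08), and Maob rose by 0.47. Aox1 (−1.18) and Hao1 (−1.03), which release hydrogen peroxide, fell to a mean under 50 in RS cells, and Maoa fell by 0.24.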

How the data were processed

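Linear signal intensities per probe set were deposited by the authors for 12 Affymetrix Rat 230 2.0 arrays, made with GCOS 1.4 according to the submitters' processing notes; other steps are not given in the sources used here, and neither detection calls nor scan dates were used. Probe sets were named from the platform annotation: 20832 had 1 symbol, 436 several and 9831 none. All 55 member genes matched the RefSeq table. Signals were quantile normalized, transformed as log2(signal + 16) and fitted in limma 3.58.1 under R 4.3.3, with 1 term for the cell line and no filter on signal, and p-values were adjusted over 31099 probe sets. The fit was tested on simulated data. Paired enzymes were compared by an exact two-sided permutation test of within-array differences, with p-values adjusted over the 10 of 12 pairs that had both genes. Overlap was judged on deposited signals. Precision is limited by the number of arrays.

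Members, pathway lists and pairs were chosen with earlier results of these data known. Array values are given for genes called with at least a 2-fold change and for the paired enzymes; other members have counts, ranges and examples of the largest and smallest changes, and each pathway list up to 3 genes of largest change in each direction. No 2 of the 12 arrays were identical (66 pairs compared). The labels describe paired harvests; deviations of same-numbered arrays correlated at −0.0516 to 0.160, so the numbers were not used as pairs. Alternatives were the deposited scaling, median centring, pseudocounts of 1 and 64, a mean signal of at least 50, array weights, an intensity trend, the replicate block, other probe sets and leaving out each array.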

Additional observations from a re-analysis of the deposited data

Results flagged for a closer look

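Among the brighter member genes (mean signal 50 or more), 86 groups of 6 arrays were tested, and 6 held an array far from the others by Dixon's criterion, which chance gives in about 1 in 20 groups. In CRI-G1-RS replicate 2, Gsr was at 355 (the other 5 RS arrays 597 to 709), Gstz1 at 1784 (1421 to 1520) and Txn1 at 7019 (5538 to 6080). The 3 values lie in both directions. Gsta4 was at 372 in RS replicate 3 (306 to 326), which is still below every RR array. Prdx5 was at 693 in RS replicate 6 (897 to 937), and Txn1 at 6489 in RR replicate 5 (5872 to 6027).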

How the results depend on the processing

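Under every alternative run, the numbers of member probe sets called lower (22 to 29) and higher (8 to 13) stayed within 1.5 times the values reported, as did those at least 2-fold lower (9 to 12) and the pairs past the threshold (7 to 9). Without RS replicate 2, 24 were lower, 10 higher and 9 at least 2-fold lower. With the replicate block, 25 were lower, 10 higher and 10 at least 2-fold lower, and 13 pathway genes were higher against 17. Of the 31 called genes, 26 kept their call without each single array and 23 under every setting and probe set; Srxn1 alone of the 8 lost its call, on its dim probe set.

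Among the results run, directions turned for genes with no call or on another probe set: Gpx4 (−0.38) and Srxn1 (0.079) on other probe sets, and Txn1 with the deposited scaling (−0.029) and median centring (−0.050). Leaving out single arrays took Gsta3 from −0.20 to 0.017, Gstm5 from −0.0050 to 0.10 and Cth from −0.036 to 0.17. The shift between Txn1 and Txn2 was 0.19 on the deposited scaling. With neighbours of signal 50 or more, the medians were 0.044 for Gclc and Gsta4 and −0.29 for Gstp1. The cause of these changes was not tested. Cbs could not be fitted where probe sets whose names mark several transcripts or genes (_a_at, _s_at and _x_at) were left out.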
